A study of Mus musculus with 6 samples.

Results

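The 8 genes described here build, transport or oxidize the lipids of the epidermal permeability barrier: Elovl1, Elovl4, Cers3, Ugcg, Pnpla1, Abca12, Alox12b and Aloxe3. They were chosen by name, with earlier results of these data known, from 21000 protein-coding genes of the mm10 RefSeq annotation. A p65 peak was given to one of them when the transcription start site of that gene was the nearest to the middle of the peak. The rule found 15 peaks of 8525 in adult mice, 4 of 4169 in aged/IgG control mice and 8 of 6014 in aged mice given anti-IL-17A/F. Any other peak within 50 kb of a start site of the 8 genes was also examined.

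p65 (encoded by Rela) is a DNA-binding subunit of NF-κB, one of the transcription factors activated by IL-17 receptors. ChIP–seq with an antibody against p65 was performed on epidermal cells of C57bl/6J mice, released from the skin with trypsin. Adult mice, aged 17–25 weeks, were untreated, whereas aged mice, 80–90 weeks old at collection, had been injected intraperitoneally with either a control IgG or neutralizing antibodies to IL-17A and IL-17F from week 73 onward, over 12 weeks. The comparison of adult with aged/IgG control addresses what age changes in p65 binding, and that of both aged conditions addresses what the blockade changes. Untreated adults thus differed from the aged controls in both age and injections, which cannot be told apart. Each condition is 1 list of peaks from the merged reads of 4 mice, so that there was no spread between animals and no test between conditions could be made. The sample was a whole epidermal suspension, in which fewer cells with p65 on a site and less p65 on that site in each cell cannot be told apart.

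In cornifying keratinocytes, very long fatty acids made by the elongases are joined to a sphingoid base by ceramide synthase, and the product is esterified with linoleate to give acylceramide. Glucosylated acylceramide is loaded into lamellar granules and secreted, and lipoxygenases oxidize its linoleate so that ceramide can be bound to the cornified envelope. Inherited loss of several of these enzymes, and of the transporter ABCA12, causes ichthyosis, a scaling disease with a leaky skin barrier.

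All 8525 peak names in the list labelled adult begin with Treated_m, as do all 6014 in the aged/anti-IL-17A/F list, although the peaks of both lists differ. Groups follow the labels, and counts with both lists exchanged are given with the limits. Reads over a summit, each extended by the authors to 300 bp, could be recovered as whole numbers from 2 deposited columns for 100% of the peaks in every list. The lowest background that MACS2, the authors' peak caller, allowed was 13.4 reads in adult, 13.1 in the aged/IgG control list and 13.6 for aged/anti-IL-17A/F, so that read numbers were nearly equal among the lists. Intervals given for reads are exact 95% Poisson intervals, which cover counting error only. They do not cover error in the local background, on which fold enrichment and rank also depend. The strongest peak of Nfkbia, a classical NF-κB target used here as a scale, held 441 reads in adult, 359 in aged/IgG control mice and 407 with aged/anti-IL-17A/F. Of 6 keratinocyte markers, 6, 4 and 5 had a peak in the same order, as against 1 of 6 markers of other skin cells (Pecam1, of endothelium) in each list. Over all protein-coding genes the shares were 23.0%, 12.9% and 17.4%, so that 1 of 6 is near the share of all genes. A peak does not measure expression.

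The κB decamer, the 10-base consensus recognized by NF-κB dimers, was present in 5 of the 16 sites found at the 8 genes. These 5 sequences are shown because they are where the p65 peaks and its motif coincide. Each is given with 20 mm10 bases to either side, 5′ to 3′ on the strand of the match, with the decamer in capitals. The sequence of Pnpla1, whose match lies in the 5′ untranslated region (UTR), has 10 flanking bases.
Alox12b, 6.0 kb upstream, chr11:69151058-69151107, minus strand: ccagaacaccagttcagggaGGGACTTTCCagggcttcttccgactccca
Ugcg, intron 1, chr4:59199618-59199667, minus strand: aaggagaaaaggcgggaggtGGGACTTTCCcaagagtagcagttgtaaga
Alox12b, 5.4 kb upstream, chr11:69151667-69151716, minus strand: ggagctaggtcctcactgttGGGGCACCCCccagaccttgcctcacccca
Abca12, intron 1, chr1:71413640-71413689, plus strand: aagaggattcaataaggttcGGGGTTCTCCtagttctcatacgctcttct
Pnpla1, exon 1, chr17:28858498-28858527, minus strand: acctaggagcGGGGCATTCCctgcaccctg

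The site 6.0 kb upstream of Alox12b and the one in intron 1 of Ugcg hold the same decamer, GGGACTTTCC, in unlike surroundings. The Alox12b site is also the one where the κB, AP-1 and C/EBP motifs lie closest together, within 102 bp. It is shown on the plus strand with all 3 matches in capitals, first the reverse complement of TTGCNNAA (C/EBP), then that of the κB decamer and last TGANTCA (AP-1).
Alox12b, 6.0 kb upstream, chr11:69151001-69151142: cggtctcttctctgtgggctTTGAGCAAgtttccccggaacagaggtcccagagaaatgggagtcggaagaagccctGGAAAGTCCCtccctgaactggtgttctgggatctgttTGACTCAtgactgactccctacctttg
The intronic site of Cers3, present in all 3 lists, held no match to the κB decamer or to the AP-1, C/EBP and Grainyhead motifs given with the counts.

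In adult epidermal cells, p65 peaks lay nearest to 6 of the 8 genes, all but Elovl1 and Aloxe3. In aged/IgG control, 4 genes had a peak (Cers3, Pnpla1, Abca12 and Alox12b). With aged/anti-IL-17A/F these 4 and Ugcg had one. Counting only peaks within 10 kb of a start site left 3 of the 8 genes in each list, against 17.4%, 8.72% and 12.1% of all protein-coding genes in adult, aged control IgG and anti-IL-17A/F. At any distance, 23.0% of all protein-coding genes had a peak in adult, 12.9% in the aged/IgG control list and 17.4% for aged/anti-IL-17A/F, lower shares than those of the 8 genes in every list. The 8 genes span 4.86 kb (Elovl1) to 172 kb (Abca12), and the longest had the most adult peaks, 5, and the shortest had none. The part of gene length in these counts was not tested.

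Peaks of the 3 lists fell on 16 sites. There were 4 sites in all lists, in intron 2 of Cers3, at the start of Pnpla1, in intron 1 of Abca12 and upstream of Alox12b. Another 3 sites were found in adult and aged/anti-IL-17A/F only, 8 in adult only and 1 in aged/anti-IL-17A/F only. The aged/IgG control list had 0 sites of its own. Thus 4 of 15 adult peaks overlapped a peak of aged/IgG control, against 45.5% of all adult peaks, and 7 of 15 overlapped one of aged/anti-IL-17A/F, against 60.4%. Of the 8 aged/anti-IL-17A/F peaks, 4 overlapped one of aged/IgG control, against 59.9% of all its peaks, and 7 overlapped an adult peak, against 85.6%.

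**Figure D1:**
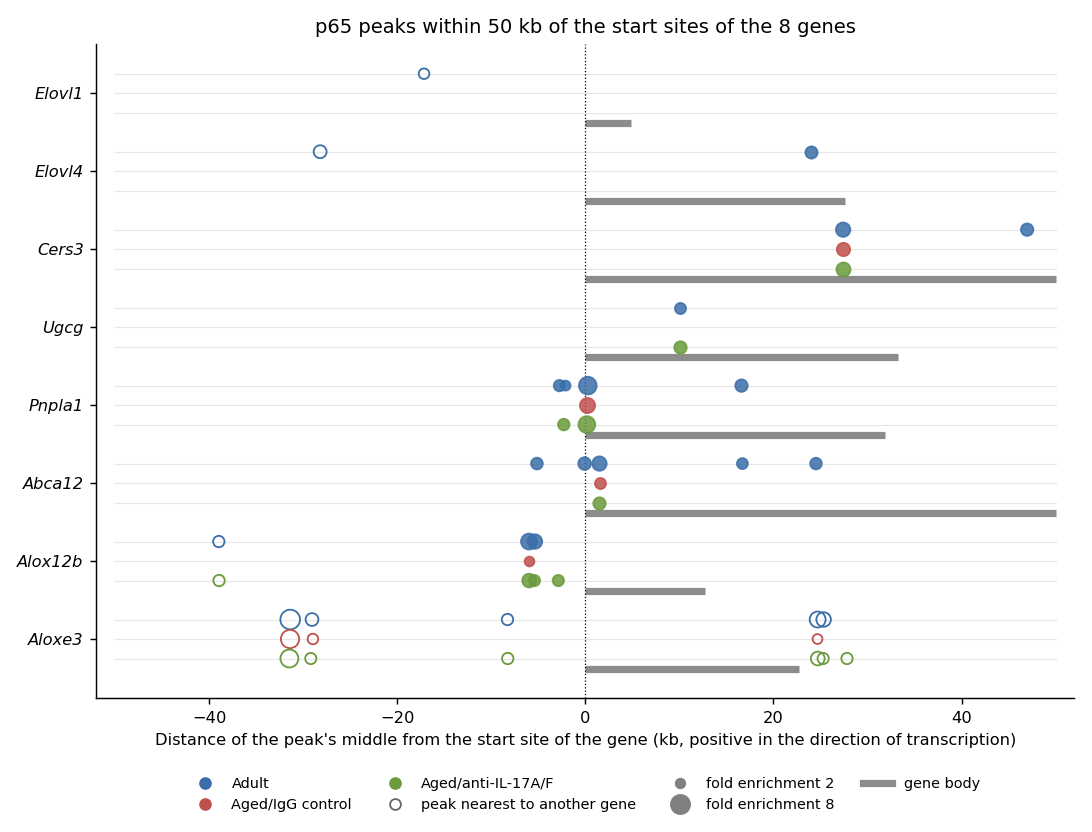
Peaks within 50 kb of the start sites of the 8 genes, by distance of the middle of the peak from the start site (x axis, kb) and by condition (3 rows per gene, colored). Filled circles are peaks nearest to that gene and open circles those nearest to another gene, with an area proportional to fold enrichment. Only Cers3, Pnpla1, Abca12 and Alox12b have filled circles in all 3 rows, and Elovl1 and Aloxe3 have none.

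The lists differ in length, and the place of adult in the order of the counts depended on it. When each list was reduced to its 4169 peaks of highest fold enrichment, 5 adult peaks remained in 4 genes, beside 4 peaks in 4 genes in aged/IgG control and 5 peaks in 5 genes in aged/anti-IL-17A/F. At that length, 13.1% of all protein-coding genes had a peak in adult, 12.9% with control IgG and 13.0% with anti-IL-17A/F. The adult sites without a peak in aged/IgG control had 2.20-fold to 4.63-fold enrichment, and 10 of the 11 lay below the median of the adult list. Those with one had 4.54-fold to 6.89-fold enrichment, and all 4 lay above it. Over the whole adult list, 13.4% of peaks in the weakest decile and 100% in the strongest overlapped a peak of aged/IgG control. The 11 missing sites held 37 to 69 reads in adult, while the weakest peaks over the lowest background held 34 reads in adult and 35 in aged/IgG control.

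Elovl1, which encodes an elongase of saturated and monounsaturated very long fatty acids, had no peak of its own. The one peak within 50 kb, in adult, lay 17.2 kb upstream and was assigned to Med8, encoding a Mediator subunit (2.47-fold, 57 reads). The nearest peak of aged/IgG control was 445186 bp from the nearer of its curated start sites, and that of aged/anti-IL-17A/F 114033 bp, each measured from a different one.

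Elovl4 makes the ultra long fatty acids of acylceramide and had 1 peak, in adult only. It lay in intron 5 (chr9:83782157-83782456), 24.0 kb downstream of the start, with 3.30-fold enrichment, 57 reads (43.2–73.9) and rank 5214 of 8525. Another adult peak 28.2 kb upstream lay at the start of Ttk, a mitotic kinase gene (3.66-fold). Neither aged list had a peak within 50 kb. Both elongases were thus without a peak in the aged conditions, as were most protein-coding genes. Only 12.9% of those had one with control IgG and 17.4% with anti-IL-17A/F. In the decile of adult fold enrichment that holds the Elovl4 peak, 23.0% of peaks overlapped one of aged/IgG control. For aged/anti-IL-17A/F this share was 40.7%. When only protein-coding start sites were used, an aged/anti-IL-17A/F peak 75.2 kb downstream of the start of Elovl4 (2.68-fold), otherwise assigned to the noncoding gene Gm2109, was assigned to Elovl4. An adult peak 85.2 kb downstream (2.82-fold) moved from Gm2109 to Elovl4 too. Another adult peak, 50.8 kb downstream of the start of Ugcg (3.67-fold), moved to Ugcg.

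Cers3, the ceramide synthase of ultra long acyl chains, had the same peak in all 3 lists, in intron 2 and 27.4 kb downstream of the start (chr7:66770684-66771133 in adult). Enrichment was 4.54-fold in adult, 3.91-fold with aged/IgG control and 4.35-fold with aged/anti-IL-17A/F, and the summits lay within 12 bp of each other. Reads over the summit were 70 (54.6–88.4), 54 (40.6–70.5) and 78 (61.7–97.3) in that order, with overlapping intervals. A second peak, in intron 9 (chr7:66790320-66790627), was present in adult only (3.40-fold, 48 reads). Cers3 was the member whose shared site kept most of its adult reads in aged/IgG control, 77.1%, close to the median of all shared peaks, 73.9%. With anti-IL-17A/F it held 144% of the reads of aged/IgG control, against a median of 121%, and 12.0% of shared peaks had a share as high or higher.

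Ugcg encodes glucosylceramide synthase, which attaches glucose to ceramide before its loading into granules. Its only site, in intron 1 and 10.1 kb downstream of the start, was in adult (chr4:59199419-59199788) and aged/anti-IL-17A/F (chr4:59199374-59199856) and in no other list. It held 52 reads (38.8–68.2) in both, at 2.71-fold enrichment in adult and 3.40-fold in aged/anti-IL-17A/F, over local backgrounds of 18.6 and 14.6 reads. Its rank was 7406 of 8525 in adult and 3587 of 6014 in aged/anti-IL-17A/F. This site carries the decamer it shares with Alox12b, 68 bp from the adult summit and 14 bp from the aged/anti-IL-17A/F summit. Nothing was called within 100 kb of the gene in aged/IgG control, where the nearest peak was 691738 bp away.

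Pnpla1 encodes the transacylase that esterifies linoleate to ceramide in the last step of acylceramide synthesis, and it had the strongest site of the 8 genes. The peak spanned the start site (chr17:28858278-28859062 in adult), and its summit lay in exon 1, in the 5′ UTR, 116 to 132 bp downstream of the start in the 3 lists. Enrichment was 6.89-fold in adult, 5.03-fold with aged/IgG control and 6.22-fold with aged/anti-IL-17A/F, at ranks 937, 1024 and 848. It held 127 reads (106–151), 87 (69.7–107) and 106 (86.8–128), which were highest in adult and lowest in aged/IgG control, with intervals that overlapped. The decamer was 15 to 31 bp from the summits.

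Further sites of Pnpla1 were weaker. Peaks 2.8 kb upstream (chr17:28855453-28855855; 2.85-fold, 52 reads) and in intron 1, 16.6 kb downstream (chr17:28874825-28875188; 3.41-fold, 69 reads), were in adult only. Between the first of these and the start, a site was in adult, 2.1 kb upstream (2.20-fold, 42 reads), and with aged/anti-IL-17A/F, 2.3 kb upstream (2.97-fold, 50 reads). In adult this was one of the weakest peaks of the list, at rank 8411. No peak of aged/IgG control lay there.

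Abca12 encodes the transporter that fills lamellar granules with glucosylceramide and had the largest number of adult peaks. Of its 5 sites only the one in intron 1, 1.5 kb downstream of the start (chr1:71413108-71413721 in adult), was in the aged lists. Enrichment there was 4.54-fold in adult, 2.70-fold with aged/IgG control and 3.37-fold with aged/anti-IL-17A/F, from 70 reads (54.6–88.4), 41 (29.4–55.6) and 48 (35.4–63.6). Aged/IgG control thus had 58.6% of the adult reads, a share at or below which 7.50% of all shared peaks fell, and aged/anti-IL-17A/F had 68.6%, with 4.94% of shared peaks at or below it. Within the decile of this peak in adult, these shares were 7.42% and 8.33%. Its decamer was 264 to 286 bp from the summits and outside the narrower peak of aged/IgG control.

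The other 4 sites of Abca12 were in adult only. They were at the start itself, with the middle of the peak 84 bp upstream (chr1:71414789-71415198; 3.54-fold, 50 reads), 5.2 kb upstream (chr1:71419860-71420260; 3.02-fold, 64 reads) and 16.7 kb and 24.5 kb downstream, in intron 2 (2.63-fold with 37 reads and 2.98-fold with 42 reads). All 4 were below the median strength of the adult list, and 74.2% of adult peaks in the decile of the strongest Abca12 site recurred in aged/IgG control, against 29.3% in the decile of the peak at the start.

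Alox12b and Aloxe3 encode the lipoxygenases that act one after the other on acylceramide, and they lie head to tail on chromosome 11, with 7.96 kb from the end of Aloxe3 to the start of Alox12b. The strongest site was in this gap, 6.0 kb upstream of Alox12b (chr11:69150761-69151386 in adult, 69150894-69151222 with aged/IgG control and 69150836-69151340 with aged/anti-IL-17A/F). Enrichment was 5.57-fold in adult, 2.10-fold with aged/IgG control and 4.14-fold with aged/anti-IL-17A/F. Its rank was 1573 of 8525 in adult, 2265 of 6014 with anti-IL-17A/F and 4160 of 4169 with control IgG, where only 9 peaks were weaker.

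Reads over this summit were 97 (78.7–118) in adult, 48 (35.4–63.6) with aged/IgG control and 86 (68.8–106) with aged/anti-IL-17A/F. The interval of aged/IgG control lay below both of the others, which overlapped. The local background was 16.6 reads in adult but 22.3 in aged/IgG control, so that between these lists the fold enrichment differed more than the reads did. Aged/IgG control had 49.5% of the adult reads, and only 27 of 3879 shared peaks (0.696%) had a share as low or lower. Aged/anti-IL-17A/F had 179% of the reads of aged/IgG control, and 0.720% of the 3612 shared peaks had a share as high or higher, or 2.58% of the 271 in the weakest decile of aged/IgG control, to which this peak belongs. Among all shared peaks the medians were 73.9% and 121%. This rank is a description of 1 site in pooled lists, and whether it would recur between animals was not tested. With a −log10 q of at least 5 required, the aged/IgG control peak was lost.

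**Figure D2:**
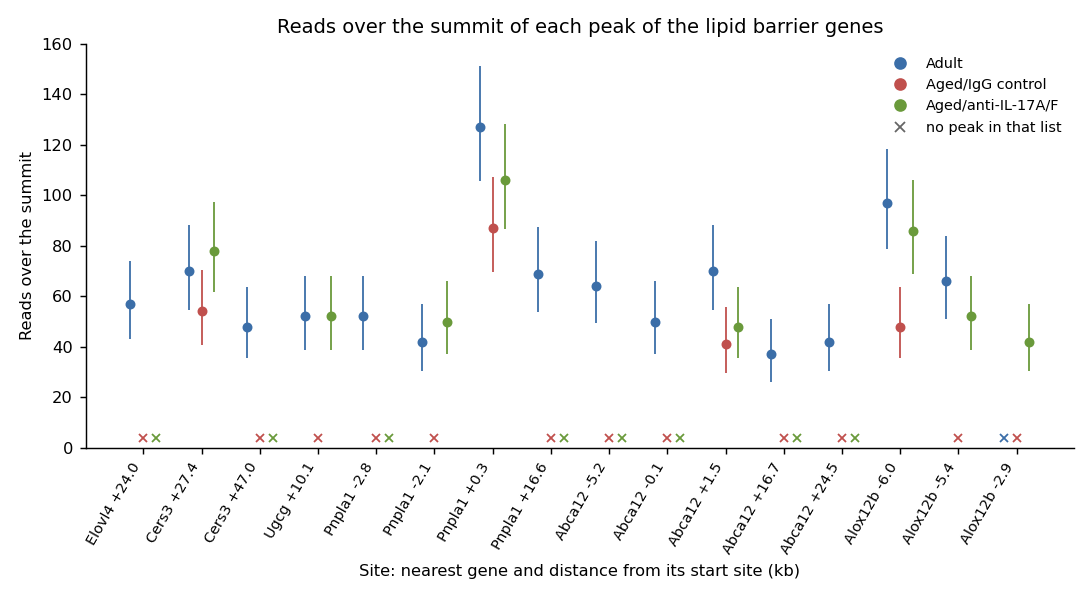
Reads over the summit (y axis) at the 16 sites of the lipid barrier genes, by condition, with exact 95% Poisson intervals (bars). Sites are named by gene and distance from its start site in kb, and crosses mark lists without a peak. At the site 6.0 kb upstream of Alox12b, 48 reads in aged/IgG control lie below 97 in adult and 86 in aged/anti-IL-17A/F.

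Close by, 5.4 kb upstream of Alox12b, adult (chr11:69151494-69151922) and aged/anti-IL-17A/F (chr11:69151483-69151831) had a further peak, of 66 reads (4.63-fold) and 52 reads (2.78-fold). It was the only one of the 11 adult sites missing from aged/IgG control that lay above the median of the adult list, and 25.8% of adult peaks in its decile were missing there. A peak 2.9 kb upstream (chr11:69154005-69154381; 2.81-fold, 42 reads) was in aged/anti-IL-17A/F only. The gap before Alox12b thus held 2 adult peaks, 1 of aged/IgG control mice and 3 of aged/anti-IL-17A/F. The 2 weaker aged/anti-IL-17A/F peaks are in a decile in which 69.6% of that list's peaks were missing from aged/IgG control and 29.6% from adult.

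Aloxe3 had no peak assigned to it. The peaks in the gap lie 24.7 kb to 27.8 kb downstream of its start, beyond its end, and nearer to the start of Alox12b. On the other side, 2 peaks in every list were assigned to Per1, a core clock gene, the stronger of them 31.4 kb to 31.5 kb upstream of Aloxe3. That peak held 189 reads in adult (163–218), 127 with aged/IgG control (106–151) and 180 with aged/anti-IL-17A/F (155–208), at 8.45-fold, 7.32-fold and 7.03-fold enrichment. A peak 8.3 kb upstream of Aloxe3, assigned to Hes7, a Notch-pathway repressor gene, was in adult (46 reads) and aged/anti-IL-17A/F (49 reads) and not in aged/IgG control. By reads the stronger Per1 peak was thus lowest in aged/IgG control, but by fold enrichment it was lowest with anti-IL-17A/F. Its reads in aged/IgG control were 67.2% of those in adult, close to the median of 69.8% among shared peaks of the strongest adult decile. With anti-IL-17A/F its reads were 142% of those in aged/IgG control, against a median of 122% in the strongest aged/IgG control decile, and these intervals did not overlap.

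**Figure D3:**
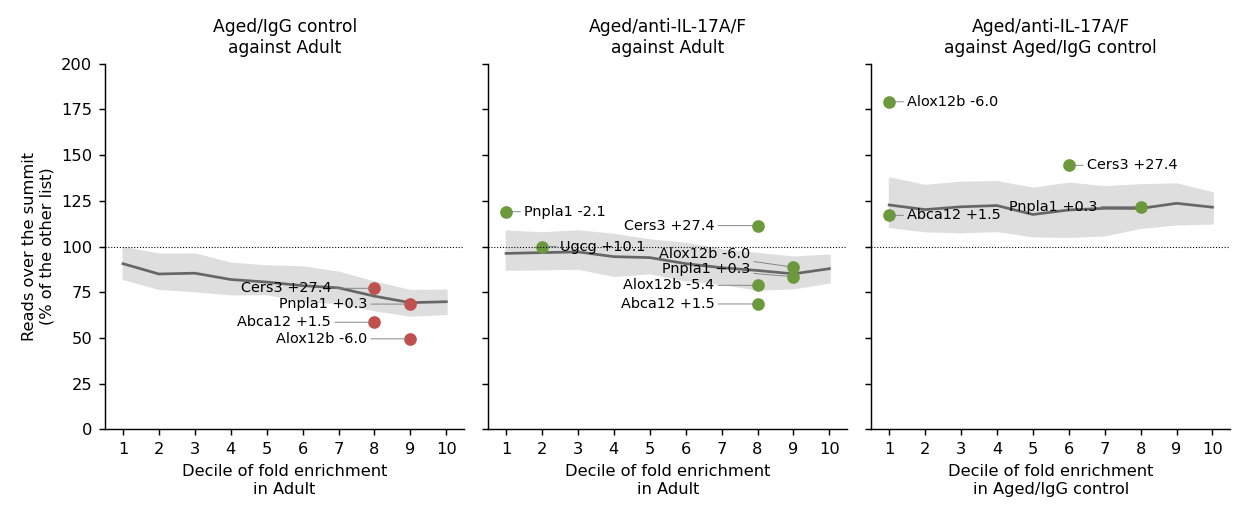
Reads over the summit in one list as a percent of those in another (y axis) for sites of the lipid barrier genes that both lists share (points, named by gene and distance in kb), by decile of fold enrichment in the list of reference (x axis). The line is the median and the band the interquartile range of all shared peaks. Outside the band are Alox12b (49.5%) and Abca12 (58.6%) on the left and Alox12b (179%) and Cers3 (144%) on the right, whereas the start of Pnpla1 (68.5% and 122%) is inside it in both. In the middle, Abca12 (68.6%), Cers3 (111%) and the site 2.1 kb upstream of Pnpla1 (119%) are outside the band.

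The κB decamer was found in 5 of 15 adult peaks of the 8 genes, 2 of 4 with aged/IgG control and 5 of 8 with aged/anti-IL-17A/F. Over all peaks of each list the shares were 34.9%, 44.7% and 41.9%, so that the adult share of the 8 genes was close to that of the list. Matches were counted on both strands over the whole peak. The AP-1 motif TGANTCA, bound by JUN and FOS proteins, was in 5, 2 and 4 peaks, against 22.9%, 23.8% and 24.8% of all peaks. The C/EBP motif TTGCNNAA was in 6, 2 and 4 peaks, against 19.6%, 17.7% and 19.0%. The Grainyhead motif AACCNGTT, of a family that controls barrier genes, was in 2, 0 and 1 peaks, against 7.51%, 7.77% and 7.20%. No match of one motif overlapped a match of another at these sites, and a match does not show that a factor was bound.

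A κB decamer and an AP-1 motif occurred together in 3 adult peaks, both upstream sites of Alox12b shared with aged/anti-IL-17A/F and the intronic site of Abca12, and 8.18% of all adult peaks held both. In the RefSeq promoter windows of GRCm38, from 250 bases before to 50 after the start, 7 of the 8 genes were matched by symbol, all but Aloxe3. The κB decamer, AP-1 and Grainyhead motifs were in 0 of the 7, against 4.51%, 7.81% and 2.09% of 32851 windows. The C/EBP motif was in 1, that of Pnpla1, against 10.8%. The decamer of Pnpla1 lies 101 bp downstream of the start, outside this window. Of the 15 adult peaks, 2 lay within 1 kb of a start site, or 13.3%, against 36.9% of all adult peaks, and 8 of 15 were within an intron.

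The same readout was examined in 57 other genes of epidermal lipid metabolism. Of these, 35 had a peak in adult, 22 with aged/IgG control and 29 with aged/anti-IL-17A/F, or 61.4%, 38.6% and 50.9%. This is again above the share of all protein-coding genes in each list, and at equal list length the counts were 21, 22 and 22. Both gene sets were chosen with earlier results of these data known, so that these shares are a description only. There were 21 genes with a peak in all 3 lists and 21 with none. As background for the reads below, aged/IgG control held a median of 73.9% of the adult reads over all peaks these lists share. Over all peaks shared by the aged lists, anti-IL-17A/F held a median of 121% of the aged/IgG control reads.

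Fatty acid elongation and hydroxylation was the only role with no peak in aged/IgG control. Of its 8 genes, 4 had a peak in both adult and aged/anti-IL-17A/F: Elovl5 and Elovl7, which are elongases, Tecr, the reductase of the elongation cycle, and Cyp4f39, the ω-hydroxylase of ultra long fatty acids. Their strongest peaks had 2.63-fold (Elovl5) to 4.27-fold (Cyp4f39) enrichment in adult and 2.29-fold (Elovl7) to 3.20-fold (Elovl5) with anti-IL-17A/F, for Elovl5 at different sites. All but Cyp4f39 were below the median of the adult list, which was 3.60-fold. Together with Elovl1 and Elovl4, all 10 elongation and hydroxylation genes examined were without a peak in aged/IgG control, in which 12.9% of all protein-coding genes had one, so that about 1 of 10 would have one at that share. At equal list length, only Cyp4f39 had a peak in adult and only Elovl5 with anti-IL-17A/F, which left counts of 1, 0 and 1.

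In ceramide synthesis, 5 of 12 genes had an adult peak, 3 had one in aged/IgG control mice and 4 with aged/anti-IL-17A/F. Sptlc2, a subunit of the serine palmitoyltransferase that starts the pathway, had a peak at its start in all lists, with 135 reads in adult, 83 with control IgG and 117 with anti-IL-17A/F. By fold enrichment it was highest with anti-IL-17A/F (5.35, 4.81 and 8.11 in the same order). Degs1, the dihydroceramide desaturase, had one with 59, 57 and 54 reads (3.57-fold, 3.41-fold and 3.53-fold). Degs2, which hydroxylates the sphingoid base, had a peak in adult (4.44-fold) and aged/anti-IL-17A/F (3.26-fold) only, and Kdsr, the ketosphinganine reductase, in adult only (2.38-fold).

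In sphingolipid conversion and breakdown the counts were 7, 6 and 7 of 9. Sgms1, a sphingomyelin synthase gene, had the highest fold enrichment of the 57 genes in adult, 14.1-fold, with 7.46-fold for aged/IgG control and 8.38-fold for aged/anti-IL-17A/F. The site lay 53.0 kb upstream of the nearest of its curated start sites, and whether it lies inside the gene was not examined. Acer1, an alkaline ceramidase of the epidermis, went from 90 reads in adult to 68 and 74. The related Sgms2, Sgpl1 (sphingosine-phosphate lyase) and Gltp (glycolipid transfer) also had peaks within 10 kb in all lists. Psap, which encodes the saposins, activators of sphingolipid breakdown, had a peak in adult (3.93-fold) and aged/anti-IL-17A/F (2.89-fold), and Smpd1, acid sphingomyelinase, in adult only (3.33-fold).

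Of 6 genes of acylceramide handling and the lipid envelope, 5, 4 and 4 had a peak. Nipal4, an ichthyosis gene, had 115 reads in adult, 71 with aged/IgG control and 85 with aged/anti-IL-17A/F, and the epidermal lipase gene Lipm had 83, 44 and 54. Lipk, a further lipase gene, had 68, 54 and 66. By fold enrichment, Lipk was highest in aged/IgG control (3.07, 3.15 and 2.51), and Nipal4, at 6.59-fold in adult, was slightly lower with anti-IL-17A/F than with control IgG. Abhd5, the cofactor of PNPLA1, had a weak peak in adult only (2.09-fold, rank 8487 of 8525).

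Sterol and neutral lipid genes with a peak numbered 6, 4 and 4 of 11. Sult2b1, the cholesterol sulfotransferase, had 150, 94 and 133 reads, and the desaturase gene Scd1 127, 114 and 118. By fold enrichment Scd1 was lowest in adult (7.70, 7.89 and 8.04). Acacb (acetyl-CoA carboxylase 2) had 100, 49 and 82 reads, much like the 97, 48 and 86 at the strongest Alox12b site. Hmgcs1 (HMG-CoA synthase) had 89, 61 and 99 reads, highest with anti-IL-17A/F. By fold enrichment Hmgcs1 was highest in adult (5.65, 3.19 and 4.37). Fasn (3.27-fold) and Scd2 (3.32-fold) had one in adult only. Fatty acid uptake and activation had a peak at 2 of 3 genes in every list.

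Of 8 transcriptional regulators, 6 had a peak in adult, 3 with aged/IgG control (Srebf1, Srebf2 and Ppard) and 4 with aged/anti-IL-17A/F (these and Rora, an orphan nuclear receptor gene). The strongest peaks of Rora were different sites in adult (3.54-fold) and with anti-IL-17A/F (3.75-fold). They lay 233 kb and 204 kb upstream of the nearest of its curated start sites, and whether they lie inside the gene was not examined. Srebf1 and Srebf2 encode the sterol-sensing activators of lipid synthesis and Ppard a lipid-sensing nuclear receptor. Reads were 91, 88 and 84 at Srebf2 and 106, 63 and 79 at Ppard. By fold enrichment Srebf2 was highest in aged/IgG control (5.23, 6.32 and 4.22) and Ppard lowest with anti-IL-17A/F (5.42, 3.83 and 3.49). At Srebf1 the strongest peak held 103 reads in adult and 63 at the same site with aged/IgG control, whereas the only peak with anti-IL-17A/F was at another start site of the gene. Ppara (2.96-fold) and Nr1h2 (2.41-fold), other lipid-sensing receptors, had a peak in adult only.

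**Figure D4:**
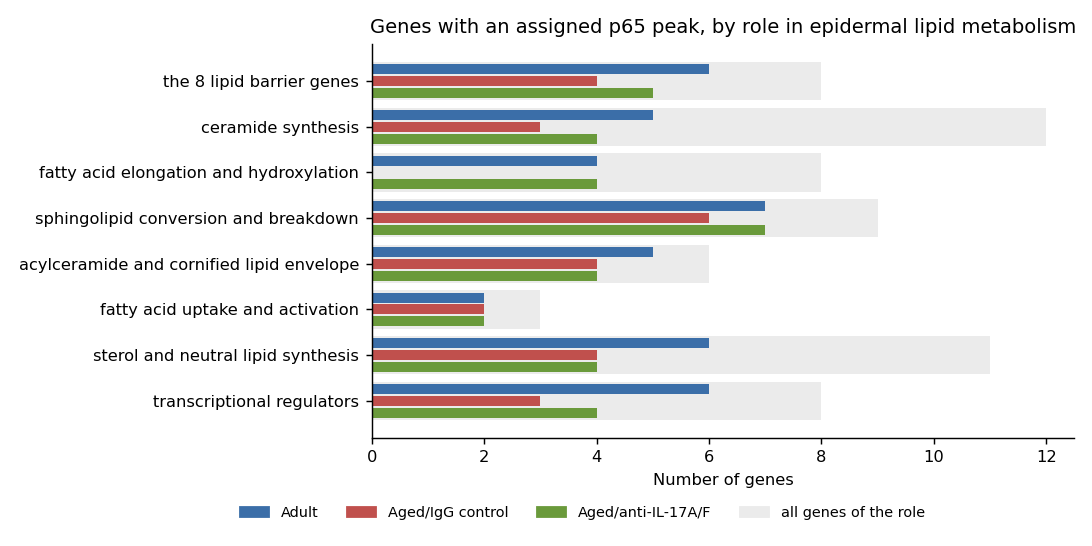
Number of genes with an assigned p65 peak in each list (colored bars, x axis) among all genes of a role (grey), for the 8 lipid barrier genes and for 57 other genes of epidermal lipid metabolism by role (y axis). Elongation and hydroxylation has 4 genes in adult, 0 with aged/IgG control and 4 with aged/anti-IL-17A/F.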

How the data were processed

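The authors used Trimmomatic for trimming, the Burrows–Wheeler aligner for alignment (mm10) and SAMtools to merge the 4 mice of a condition and remove duplicates. Pools were brought to equal read number, and MACS2 was run on each with a q threshold of 0.01 and an extension size of 300 bp. Whether inputs entered the calling is not given in the sources used here, and the 3 inputs were not analysed. The deposited lists give per peak a position and summit offset, a whole-number score, the fold enrichment at the summit (a ratio to the local background) and the −log10 of a p-value and of a q-value. Merging removes the spread between mice, and equal read number does not equalize the efficiency of immunoprecipitation.

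Each peak was assigned to the nearest start site of a curated RefSeq transcript, measured from its middle. This differs from the authors' Homer annotation. Overlap meant at least 1 bp, and ranks are by fold enrichment. Reads over a summit and the local background were solved from the fold enrichment and −log10 p, accepted within 0.001 on the −log10 scale. Steps were tested on simulated data. The 8 genes and the lists were chosen with earlier results of these data known. Genes named are the 8, those with a peak within 50 kb of them, and of the 57 those with a peak within 10 kb in all lists, in only one of adult and aged/IgG control, or among the 3 highest in a list. One gene and one sequence that this would name are not reported here. Python 3.11.15, numpy 2.4.6, pandas 2.3.3, scipy 1.17.1, pysam 0.24.0, matplotlib 3.10.9 and bedtools 2.31.1 were used.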

Additional observations from a re-analysis of the deposited data

How the results depend on the processing

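No paired analysis was possible because each condition is 1 pooled list with no replicates. Counts are given first for adult, next for the aged control IgG list and last for anti-IL-17A/F. Of 113 alternative counts, 84 were within 1.5 times the reported one. Predicted transcripts, summits, protein-coding start sites only, an overlap of at least 50% of both peaks and motifs within 100 bp of the summit moved no count further. With a −log10 q of at least 10, genes with a peak were 5, 2 and 4, assigned peaks 9, 2 and 4, peaks within 50 kb 12, 3 and 5, adult peaks overlapped by aged/IgG control 2 and by aged/anti-IL-17A/F 3, and peaks with the decamer in the aged lists 1 and 3; with at least 5, that count was 1 in aged/IgG control. At equal list length, assigned peaks were 5, 4 and 5, peaks within 50 kb 7 in adult and 6 in aged/anti-IL-17A/F, overlaps with aged/anti-IL-17A/F 4 and other lipid genes 21 in adult. Within 10 kb of a start site, genes were 3, 3 and 3 and adult peaks 8. Windows of 20 kb held 13 peaks in adult and 3 in aged/IgG control, and of 100 kb 10 in aged/IgG control. A relaxed decamer, with any 5 bases inside, was in 10 of 15 adult peaks, against 83.3% of all adult peaks. With the lists labelled adult and anti-IL-17A/F exchanged, an alternative added after the data were seen, assigned peaks were 8, 4 and 15 and peaks within 50 kb 11 and 20, so that aged/IgG control stayed lowest but the other conditions changed places. Without replicates, no difference between conditions can be set against variation between mice, and a missing peak does not show that p65 was absent.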
